A study of Homo sapiens with 8 samples.

Results

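The 10 genes described here encode the core of the human microRNA pathway: the Argonautes AGO1 to AGO4, the scaffold proteins TNRC6A, TNRC6B and TNRC6C, and the microRNA processors DICER1, DROSHA and DGCR8. They were chosen by gene symbol from a table of 60606 genes, and all 10 were found and passed the filter on low counts. Long RNA was counted in 8 libraries of HEK293, an established human embryonic kidney line. The tDR group (4 libraries) was transfected with a synthetic tRNA-Asp-GTC 3' fragment, a tRNA-derived RNA. The control group (4 libraries) was transfected with a scrambled mimic, so both groups carried a transfected small RNA and the same lipid reagent. Both mimics were given at 50 nM for 48 hours, and no untransfected cells are in the comparison. Whether the libraries come from separate cultures is not stated in the labels; p-values therefore describe the spread among these 8 libraries, possibly only technical.

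A microRNA is cut from its hairpin in the nucleus by DROSHA with its RNA-binding partner DGCR8 (together the Microprocessor), exported, and cut again in the cytoplasm by DICER1. An Argonaute protein holds the mature strand and finds matching mRNAs, and a TNRC6 protein (GW182) bound to the Argonaute recruits the deadenylation and decay machinery. Some short 3' tRNA fragments are also known to be carried by Argonautes. These data measure mRNA levels of the machinery, not small RNAs, proteins or loading.

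The mRNAs of the core pathway differed little between the groups. AGO1 rose 1.11-fold and TNRC6B 1.09-fold, and the other 8 genes did not pass the test. Higher calls thus made up 2 of 10 genes, against 12.8% of all 17184 genes tested, and lower calls 0 of 10, against 11.4%. Calls rest on edgeR's quasi-likelihood test with p adjusted over all genes by Benjamini and Hochberg, at a threshold of 0.05. At an unadjusted p under 0.05 there were 3 genes, AGO1, TNRC6B and AGO2, all higher, beside 35.9% of all genes in either direction. DESeq2 called 2 genes higher, beside 10.5% of all genes, and 0 lower, beside 1948 of 17184 genes. The 95% intervals of the 10 fold changes lay between 0.854 and 1.19, so changes beyond that range were outside the interval of every gene. The median log2 fold change of the 10 genes was 0.01, beside 0.02 over all genes tested. Neither call held under every alternative: AGO1 was called in 10 of 16 and TNRC6B in 4 of 16.

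**Figure D1:**
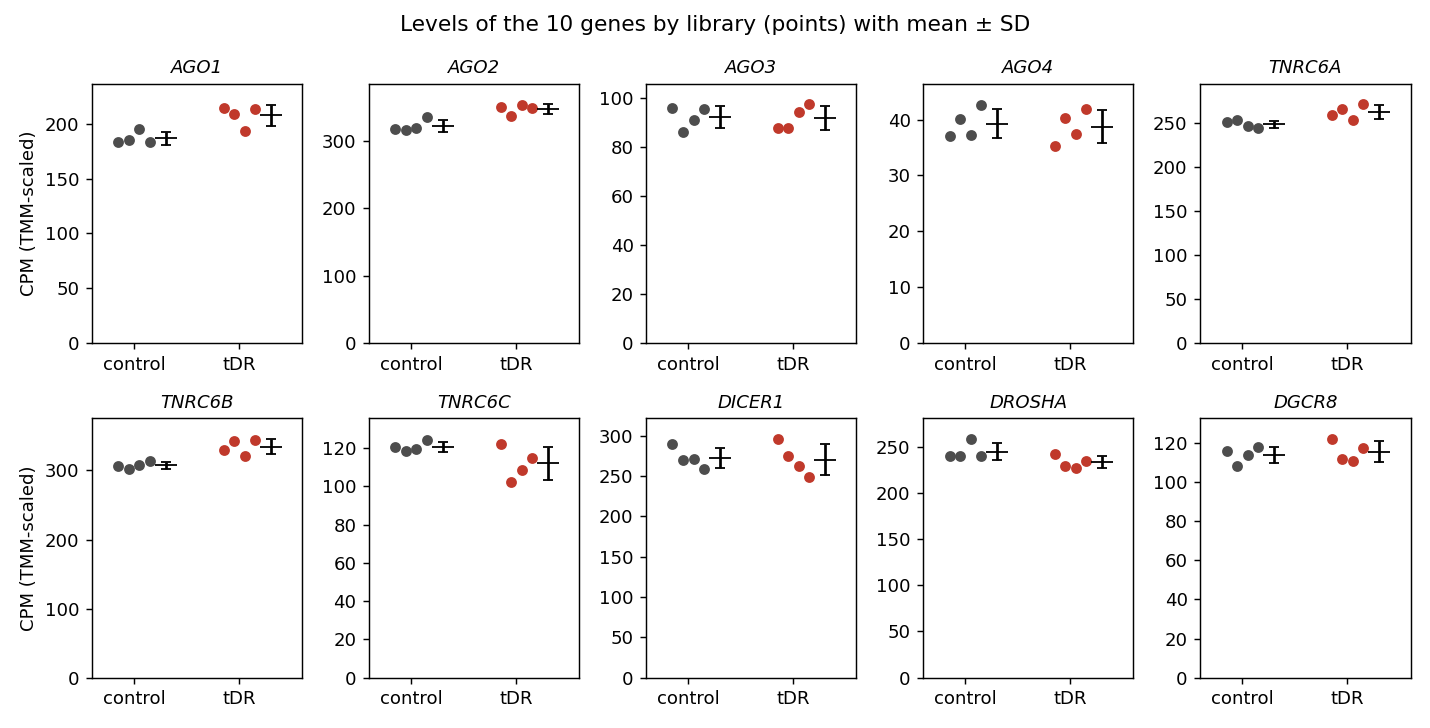
Levels of each gene in CPM (counts scaled to library size, with TMM factors) in the 4 control and 4 tDR libraries, in replicate order from left to right; the bar beside each group is mean ± SD. AGO2, TNRC6A and TNRC6B are the genes in which every tDR library lies above every control library. Over all 17184 genes tested, 11.8% were separated in this way.

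**Figure D2:**
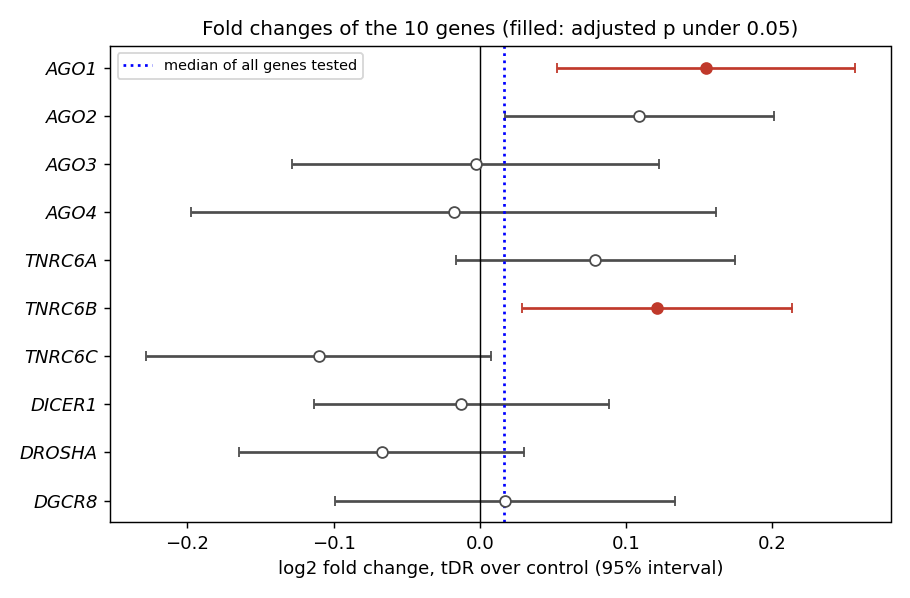
Log2 fold change of tDR over control with its 95% interval for the 10 genes; filled points passed the test and the dotted line is the median of all genes tested (0.02). AGO1 and TNRC6B are filled, and the intervals of AGO3, AGO4, DICER1 and DGCR8 are centred near 0.

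Among the Argonautes the better expressed members, AGO1 and AGO2, had the higher fold changes. AGO2 is the Argonaute known for its slicing activity. AGO1 (chromosome 1, 35869808 to 35930528, plus strand, GENCODE 29 on GRCh38) stood at 183, 185, 195 and 183 CPM in control replicates 1 to 4. In tDR replicates 1 to 4 it stood at 215, 209, 194 and 213 CPM. The groups overlapped slightly, since tDR replicate 3 lay just below control replicate 3. The means were 187 ± 5.73 and 208 ± 9.56 CPM (SD, n = 4), a log2 fold change of 0.15 ± 0.051 (SE) with an edgeR adjusted p = 0.0203. That call ended without control replicate 4 (log2 fold change 0.13) or without tDR replicate 1 (0.13), 2 (0.14) or 4 (0.14). It also ended with no filter on low counts (0.12) and with offsets for gene length and GC content (0.11), and the adjusted p over all alternatives ran from 0.000321 to 0.137.

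AGO2 (chromosome 8, 140520156 to 140635619, minus strand) stood at 317, 315, 320 and 335 CPM in control replicates 1 to 4 and at 350.3, 337, 353 and 349 CPM in tDR replicates 1 to 4. Every tDR library lay above every control library, which 11.8% of all tested genes did. The log2 fold change was 0.11 ± 0.046 (SE), and it did not pass (edgeR adjusted p = 0.0737). It passed with scaling to library size alone (0.19, with an edgeR adjusted p = 0.00108) and with background over the gene span subtracted (0.16; adjusted p = 0.012).

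AGO3 and AGO4, which lack the strong slicing activity of AGO2, had lower levels and fold changes near 0. AGO3 (chromosome 1, 35930718 to 36072500) ranged from 86.1 to 95.8 CPM in controls and from 87.7 to 97.4 CPM with the tDR. Its log2 fold change was 0.00, with a 95% interval of -0.13 to 0.12. AGO4 (chromosome 1, 35808172 to 35857890) ranged from 37.1 to 42.6 CPM and from 35.2 to 41.9 CPM, with a log2 fold change of -0.02 (95% interval -0.20 to 0.16). The groups overlapped in both genes. AGO4 had the fewest counts of the 10 genes, down to 208 in a library, and the widest interval. The signs of AGO3 and AGO4 turned with scaling to library size alone, and neither gene passed under any alternative.

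AGO4, AGO1 and AGO3 are neighbours on the plus strand of chromosome 1 and read in the same direction, so they are shown together with TNRC6B, the other called gene. The RefSeq promoter windows (GRCh38.p14, plus strand, the 250 bases before the annotated start) carry in capitals each CCAAT (or ATTGG on this strand) and each GGGCGG (or CCGCCC). The windows are chr1:35807766-35808015 for AGO4, chr1:35882959-35883208 for AGO1, chr1:35930855-35931104 for AGO3 and chr22:40044584-40044833 for TNRC6B.
AGO4: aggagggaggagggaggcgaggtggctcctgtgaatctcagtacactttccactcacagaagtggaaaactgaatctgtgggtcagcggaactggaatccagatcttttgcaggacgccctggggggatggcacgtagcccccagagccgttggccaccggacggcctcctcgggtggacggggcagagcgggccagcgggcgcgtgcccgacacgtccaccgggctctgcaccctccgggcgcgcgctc
AGO1: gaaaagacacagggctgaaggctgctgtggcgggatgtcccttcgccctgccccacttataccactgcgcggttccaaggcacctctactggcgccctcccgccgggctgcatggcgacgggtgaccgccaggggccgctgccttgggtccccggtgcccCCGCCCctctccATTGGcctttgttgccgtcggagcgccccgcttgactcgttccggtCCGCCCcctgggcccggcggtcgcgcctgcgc
AGO3: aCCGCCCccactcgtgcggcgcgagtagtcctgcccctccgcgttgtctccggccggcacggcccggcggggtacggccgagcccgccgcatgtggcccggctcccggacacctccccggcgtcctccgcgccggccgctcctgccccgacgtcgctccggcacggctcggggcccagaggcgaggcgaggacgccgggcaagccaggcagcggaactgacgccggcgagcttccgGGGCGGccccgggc
TNRC6B: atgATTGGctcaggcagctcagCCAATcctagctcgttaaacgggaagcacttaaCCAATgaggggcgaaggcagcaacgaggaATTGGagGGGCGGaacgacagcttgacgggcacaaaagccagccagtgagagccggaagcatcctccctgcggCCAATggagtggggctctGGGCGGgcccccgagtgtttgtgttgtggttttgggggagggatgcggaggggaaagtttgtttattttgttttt

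The AGO1 window holds 1 CCAAT and 2 GGGCGG matches, the AGO3 window 0 and 2, the AGO4 window 0 and 0, and the TNRC6B window 5 and 2. Over all 35116 RefSeq promoter windows of that length, 32% hold a CCAAT match and 42.6% a GGGCGG match on either strand. The GC content of the windows is 71.6% for AGO1, 80.0% for AGO3, 66.4% for AGO4 and 56.4% for TNRC6B. None of the 4 holds TATAAA on either strand, a match found in 10.7% of all windows. These matches describe the letters only, and no factor binding was measured.

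The 3 TNRC6 genes differed in the sign of their fold changes. TNRC6B (chromosome 22, 40044817 to 40335808) stood at 307, 301, 308 and 314 CPM in control replicates 1 to 4 and at 330.3, 342, 321 and 344 CPM in tDR replicates 1 to 4. All tDR libraries lay above all controls, the highest of which was control replicate 4. Such a separation was found in 11.8% of all tested genes. The means were 308 ± 5.31 and 334 ± 10.9 CPM (SD, n = 4), a log2 fold change of 0.12 ± 0.046 (SE) with an edgeR adjusted p = 0.0474. No library could be left out with the call intact: it was kept in 0 of 8 such fits, in which the log2 fold change ran from 0.10 to 0.13. The call also ended with the replicate block (0.12, with an edgeR adjusted p = 0.0565), with DESeq2's size factors (0.11), with no filter on low counts (0.09) and with offsets for gene length and GC content (0.06).

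TNRC6A (chromosome 16, 24610209 to 24827632) stood at 251, 253, 247 and 245 CPM in control replicates 1 to 4 and at 259, 267, 254 and 272 CPM in tDR replicates 1 to 4. The groups did not overlap, as in 11.8% of all tested genes with tDR above control, but tDR replicate 3 was within 1 CPM of the highest control. Its log2 fold change of 0.08 ± 0.048 (SE) did not pass (edgeR adjusted p = 0.229). It passed with scaling to library size alone (0.16, with an edgeR adjusted p = 0.00838).

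TNRC6C (chromosome 17, 77959240 to 78108835) pointed the other way. It stood at 121, 118, 119 and 124 CPM in control replicates 1 to 4 and at 122, 102, 109 and 115 CPM in tDR replicates 1 to 4. In 3 of the tDR libraries it was below every control, while tDR replicate 1 lay among the controls. Its log2 fold change was -0.11 ± 0.059 (SE) with an edgeR adjusted p = 0.172, and it did not pass under any alternative.

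The makeup of each family was compared as the share of each paralog in its family's counts, a value that needs no scaling between libraries. TNRC6B held 45.4% ± 0.528 of TNRC6 counts in controls and 47.1% ± 0.705 with the tDR (SD, n = 4). TNRC6C held 17.8% ± 0.271 and 15.8% ± 1.13. In both the groups did not overlap: TNRC6B ran from 44.8% to 46.0% in controls and from 46.4% to 48.1% with the tDR, and TNRC6C from 17.6% to 18.2% and from 14.4% to 17.2%. Each reached p = 0.0286 in an exact two-sided permutation test, the smallest value that 70 assignments of the libraries can give. The adjusted p of this test was 0.129 over the 9 composition values, so neither passed. With this floor no value could pass unless most of the 9 reached it, so the adjusted test could not decide on these shares. The share of TNRC6A was 36.8% ± 0.765 and 37.1% ± 0.454. Since the shares of a family add up to the whole and that of TNRC6A differed little, the TNRC6B and TNRC6C results are not independent.

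No Argonaute's share of its family passed the test. AGO2 held 50.3% ± 0.576 of AGO1 to AGO4 counts in controls and 50.7% ± 1.06 with the tDR (SD, n = 4). AGO1 held 29.2% ± 1.03 and 30.3% ± 1.21, AGO3 14.4% ± 0.588 and 13.4% ± 0.588, and AGO4 6.13% ± 0.364 and 5.65% ± 0.412. The smallest p of the 4 was that of AGO3 (exact two-sided permutation p = 0.0857, adjusted p = 0.257).

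**Figure D3:**
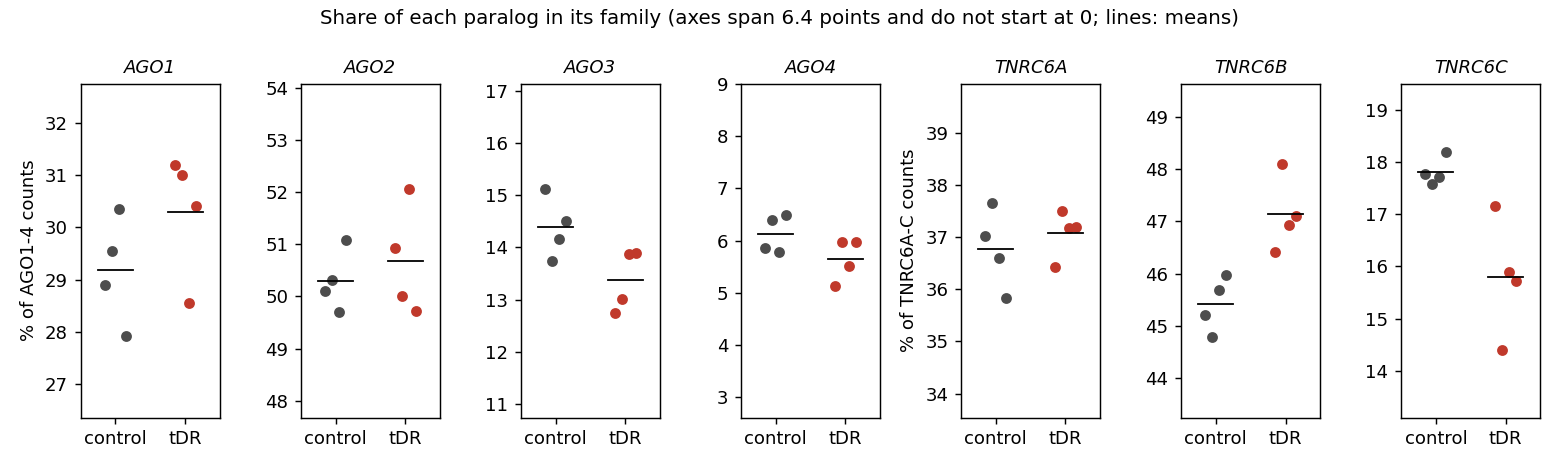
Share of each Argonaute in the AGO1 to AGO4 counts and of each TNRC6 gene in the TNRC6A to TNRC6C counts, by library, with the mean as a line; axes do not start at 0 and all span the same range. The control and tDR libraries are apart for TNRC6B and TNRC6C and overlap for TNRC6A and for AGO1 to AGO4.

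Summed over each family, the Argonaute mRNAs stood at 640.0 ± 12.9 CPM in controls and 685 ± 11.9 CPM with the tDR (SD, n = 4), 7.12% higher. The controls ran from 627 to 657 CPM and the tDR libraries from 674 to 701 CPM, with no overlap. This sum had an exact two-sided permutation p = 0.0286 and an adjusted p = 0.0857 over the 3 family sums, so it did not pass. That p is the smallest the test can give, so the Argonaute sum could pass only if another family sum reached it too. The TNRC6 sum was 677 ± 4.93 and 709 ± 19.6 CPM, 4.74% higher, with a slight overlap (exact two-sided permutation p = 0.0571, adjusted p = 0.0857). The sum of DICER1, DROSHA and DGCR8 was 631 ± 15.6 and 619 ± 28.0 CPM (exact two-sided permutation p = 0.4, adjusted p = 0.4). That difference of -11.6 CPM turned to 24.1 CPM with library size alone and to 10.8 CPM with background over the gene span subtracted. With scaling to library size alone, with background subtracted, or without tDR replicate 3 or 4, the Argonaute and TNRC6 sums each reached an adjusted p = 0.0429 (exact permutation test).

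None of the 3 microRNA processors passed the test under any alternative, and with library size alone the signs of DICER1 (0.07) and DROSHA (0.02) turned. DROSHA, the nuclear RNase III (chromosome 5, 31400497 to 31532196, minus strand), stood at 240.2, 240.1, 258 and 240.2 CPM in control replicates 1 to 4. In tDR replicates 1 to 4 it stood at 243, 230, 227 and 234 CPM. Control replicate 3 stood above the other controls, which were nearly equal, and tDR replicate 1 lay above those 3 controls. The log2 fold change was -0.07 ± 0.049 (SE) with an edgeR adjusted p = 0.33, with a 95% interval of -0.16 to 0.03.

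DGCR8 (chromosome 22, 20080232 to 20111877, plus strand) ranged from 108 to 118 CPM in controls and from 111 to 122 CPM with the tDR. The groups overlapped, and the log2 fold change was 0.02 (95% interval -0.10 to 0.13). The Microprocessor is known to cut hairpins within the DGCR8 mRNA itself. In GENCODE 29 the mature sequences of hsa-miR-1306 lie in the coding sequence of all 4 protein-coding DGCR8 transcripts that span them. They are printed 5' to 3' from RefSeq (GRCh38.p14), with the seed, bases 2 to 8, in capitals, at chr22:20086072-20086093 for the 5p and chr22:20086112-20086129 for the 3p arm.
hsa-miR-1306-5p: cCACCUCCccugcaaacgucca
hsa-miR-1306-3p: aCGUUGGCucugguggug

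The seeds of the 2 arms differ. The gene rows of that hairpin, MIR1306, and of MIR3618, which also lies within DGCR8, were at 0 counts in all 8 libraries. With the counting of reads that overlap more than 1 gene not given in the sources used here, those zeros set no limit. The DROSHA to DGCR8 count ratio, which compares the mRNAs of the Microprocessor partners, not their proteins, without any scaling, was 2.15 in controls and 2.02 with the tDR (geometric means). Its log2 value was 1.10 ± 0.076 and 1.02 ± 0.027 (SD, n = 4; exact two-sided permutation p = 0.114, adjusted p = 0.257).

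DICER1, the cytoplasmic RNase III (chromosome 14, 95086228 to 95158010, minus strand), ranged from 259 to 289 CPM in controls and from 249 to 295 CPM with the tDR. The tDR range enclosed the control range, and the log2 fold change was -0.01 (95% interval -0.11 to 0.09). The log2 ratio of DICER1 to DROSHA counts was 0.15 ± 0.087 and 0.21 ± 0.086 (SD, n = 4; exact two-sided permutation p = 0.371, adjusted p = 0.478). An antisense gene, DICER1-AS1, overlaps its 5' end only from 95157645 to 95158010 and runs on to 95179933. Counts over all of DICER1-AS1 summed to 3.68% of those of DICER1. TRMT2A, on the opposite strand, overlaps the end of DGCR8 only from 20111866 to 20111877 and runs on to 20117392. Counts over all of TRMT2A summed to 40.3% of those of DGCR8. Both percentages are whole-gene totals, not counts inside the overlaps. The kit keeps strand, but the strand setting used in counting is unknown here. Reads within these short overlaps could therefore be shared.

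Per kilobase of annotated exon, levels in the controls spanned from DROSHA (31.5 CPM per kb) to AGO3 (4.35 CPM per kb). Between them stood DICER1 (22.1), AGO2 (20.3), TNRC6A (19.3), DGCR8 (15.6), TNRC6B (15.4), AGO1 (13.4), TNRC6C (10.9) and AGO4 (5.40), all in CPM per kb of control mean. Control libraries of neighbours in this order overlapped for DICER1 and AGO2, and for DGCR8 and TNRC6B, so these pairs are not ordered. Every other gene exceeded the next in all 8 libraries. The order rests on the exon length used: with the longest transcript instead, TNRC6A (29.5 CPM per kb) and DICER1 (26.3) followed DROSHA, and AGO2 came after DGCR8. The last 5 places, from TNRC6B to AGO3, were the same with either length.

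**Figure D4:**
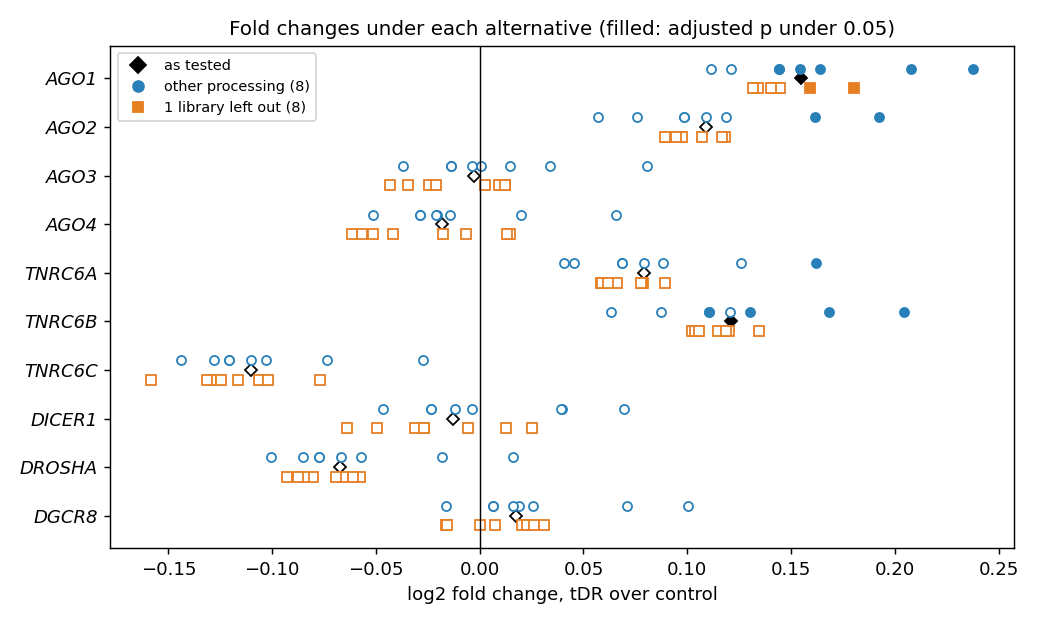
Log2 fold change of tDR over control for each gene as tested (diamond), under 8 other ways of processing (circles) and with 1 library left out (squares); filled symbols passed the test. AGO1 is filled in 10 of its 16 alternatives and TNRC6B in 4 of 16, and no symbol of AGO3, AGO4, TNRC6C, DICER1, DROSHA or DGCR8 is filled.

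Around this core, in lists drawn up from knowledge of the pathway, more of the called genes were lower than higher. Earlier results of these data were known when the lists were chosen, so their counts are not an independent test. Of 17 tested cofactors of microRNA biogenesis 9 fell and 1 rose, with a median log2 fold change of -0.17, beside 11.4% lower and 12.8% higher over all genes. HNRNPA2B1, an RNA-binding protein that aids Microprocessor recognition, went from 1818 ± 94.0 to 1425 ± 50.2 CPM (SD, n = 4; log2 fold change -0.35). SRRT (ARS2), which links the cap-binding complex to primary microRNAs, fell by 0.32 and SRSF3, which binds next to their hairpins, by 0.27 on the log2 scale. The helicase gene DDX17 fell by 0.19 and KHSRP, which binds let-7 precursors, by 0.20. LIN28B, which blocks let-7 maturation, went from 165 ± 7.52 to 141 ± 7.81 CPM (log2 fold change -0.22), a call lost with library size alone (-0.14). XPO5, the export receptor of hairpin precursors (-0.27), and ADAR, the RNA editing enzyme and the gene that rose (0.16), are named after their values were seen. XPO5 lost its call with library size alone (-0.18), with background over the gene span subtracted (-0.23) and without tDR replicate 2 (-0.22). ADAR kept its call in 12 of 16 alternatives. It lost it with no filter on low counts (0.12) and when control replicate 1 (0.10), tDR replicate 2 (0.14) or tDR replicate 3 (0.14) was left out. The DICER1 partners TARBP2 (-0.08) and PRKRA (-0.17) did not pass.

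Genes for loading and turnover of Argonautes went both ways. Of 16 tested, 8 fell and 3 rose, with a median of -0.12, beside 11.4% lower and 12.8% higher over all genes. The chaperones that hold Argonautes open for a small RNA duplex were among those lower. HSP90AA1 went from 5021 ± 295 to 4199 ± 205 CPM (SD, n = 4; log2 fold change -0.26), and HSP90AB1 fell by 0.28, HSPA8 by 0.23 and PTGES3 by 0.35 on the log2 scale. These proteins serve many other clients. ANKRD52, a regulatory subunit of the phosphatase that removes phosphate from AGO2, stood at 116 ± 6.53 CPM in controls and 159 ± 3.01 CPM with the tDR. Its log2 fold change was 0.46 ± 0.056 (SE) with an edgeR adjusted p = 5.81e-09. The catalytic subunit of that phosphatase, PPP6C (-0.05), and the opposing kinase CSNK1A1 (-0.08) did not pass. WTIP, a LIM-domain protein of P-bodies, rose from 3.35 ± 0.615 to 7.19 ± 1.09 CPM. It had few counts, 113 summed over the controls and 215 over the tDR libraries. Background would give 11.9% of its counts over the gene span and 14.6% over exons. ZSWIM8, the ubiquitin ligase adaptor of target-directed microRNA decay, had a log2 fold change of 0.50 ± 0.12 (SE) with an edgeR adjusted p = 0.00166 and is named because it completes the count of 3. The calls of ANKRD52, WTIP and ZSWIM8 were kept in 16 of 16 alternatives.

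Of 25 tested effectors of silencing 7 fell and 0 rose, with a median of -0.09, beside 11.4% lower and 12.8% higher over all genes. They act downstream of TNRC6 proteins in deadenylation, decapping and decay. PAN2, the catalytic subunit of a deadenylase, had 23.3 ± 2.47 CPM in controls and 15.9 ± 2.36 CPM in tDR libraries (SD, n = 4), which is -0.54 ± 0.13 (SE) as log2 fold change, with an edgeR adjusted p = 0.00106. CNOT7, a catalytic subunit of the CCR4-NOT deadenylase, fell by 0.33. CNOT10, another subunit, fell by 0.22, a call lost with library size alone (-0.14), with background over the gene span subtracted (-0.18) and without tDR replicate 3 (-0.20). PABPC1, the poly(A)-binding protein that TNRC6 contacts, fell by 0.20. FXR1 fell by 0.21, and FMR1 by 0.17, a call lost with library size alone (-0.09), background subtraction (-0.11), length and GC offsets (-0.09) and without tDR replicate 4 (-0.14). The helicase DDX6 (-0.07) and the exonuclease XRN1 (-0.01) did not pass. Scaling moved these counts: with library size alone 5 cofactors, 4 loading and turnover genes and 4 effectors were lower, beside 5.28% of all genes, while 4 loading and turnover genes and 3 effectors were higher, beside 19.2%. With background over the gene span subtracted 4 loading and turnover genes and 4 effectors were lower, beside 7.26%. With length and GC offsets 5 loading and turnover genes were lower, beside 11% of all genes.

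**Figure D5:**
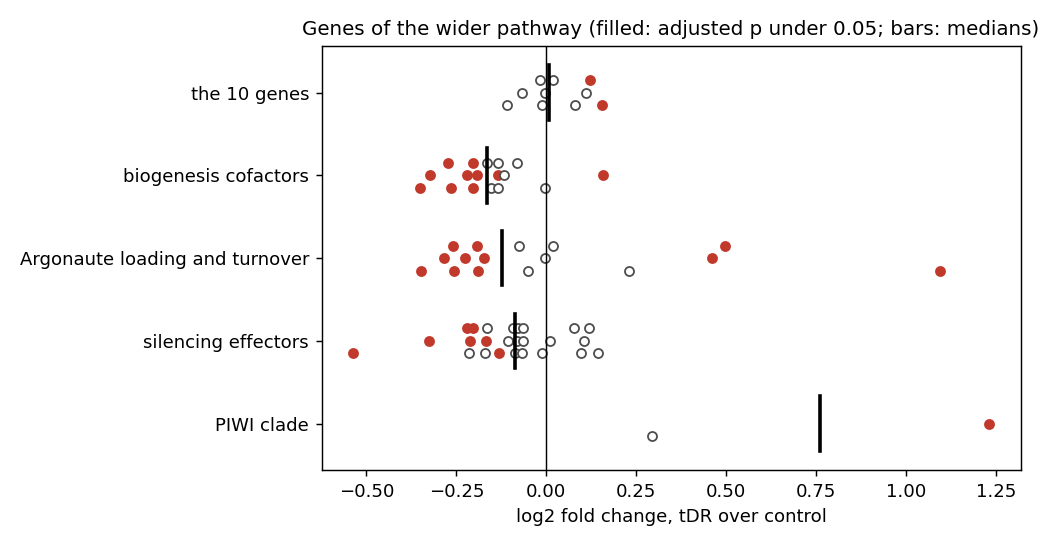
Log2 fold change of tDR over control for the 10 core genes and the tested genes of 4 other lists; filled points passed the test and the bars are list medians. The medians are 0.01 for the core genes, -0.17 for biogenesis cofactors, -0.12 for loading and turnover and -0.09 for silencing effectors; the PIWI list holds 2 tested genes.

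The PIWI proteins, the germline relatives of the Argonautes, were near the floor. PIWIL3 stood at 0.800 ± 0.437 and 1.88 ± 0.784 CPM (SD, n = 4; log2 fold change 1.23, with an edgeR adjusted p = 0.0399), a call kept in 7 of 16 alternatives. PIWIL2 had 1.55 ± 0.642 and 1.86 ± 0.392 CPM and did not pass, and PIWIL1 (48 counts in all) and PIWIL4 (7 counts) were not tested. Background, estimated from counts over olfactory receptor genes, was itself denser in the tDR libraries, at 0.0243 ± 0.00108 against 0.0156 ± 0.00197 CPM per kb (SD, n = 4). Over the gene span it would give 80.4% of PIWIL3's counts, and over exons 15.1%. For PIWIL4 either estimate exceeds the counts seen, so the estimate is rough for a single gene. For the 10 core genes it came to between 0.526% and 3.03% of counts over the gene span. With background over the gene span subtracted, a setting that also changed the scaling and left 15111 genes tested, AGO1, AGO2 and TNRC6B were called higher, 3 of 10 beside 7.45% of all genes. The part of background alone in these calls was not tested.

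Total counts ran from 5848305 to 10557740 per library, and the 10 genes held 208 to 3414 counts each in a library. All 6 HEK293 and embryonic kidney markers examined had counts, and their sum ran from 524 to 574 CPM in controls and from 461 to 508 CPM with the tDR. The neurofilament genes NEFM (log2 fold change -0.41) and NEFL (-0.46), which hold most of that sum, fell, while PAX2 (0.44) and KRT8 (0.64) rose and VIM and KRT18 did not pass. Markers of other cell types were low but some moved with the group. The 5 fibroblast markers summed to 17.8 to 23.0 CPM in controls and 29.9 to 34.5 CPM with the tDR, most of it COL1A1. The 4 endothelial markers summed to 7.33 to 9.05 and 13.1 to 18.2 CPM, the 3 hepatocyte markers to 1.28 to 2.45 and 3.01 to 5.18 CPM, and the 4 hematopoietic markers to 2.74 to 4.77 and 3.22 to 5.35 CPM. None of these markers was at 0 in all libraries, and their part in the results was not tested. The gene rows of HNRNPA1, TSNAX and EIF4ENIF1, which most cells use, were listed at 0 in every library and give no value here.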

How the data were processed

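Total RNA of 8 HEK293 libraries was extracted with TRIzol and made into stranded libraries with a low-input total RNA kit, per the labels' protocols. The authors deposited whole-number read counts per gene, with no normalization. The tools named, per the submitters' processing notes, are STAR 2.7.8a and featureCounts 2.0.2, with DESeq2 1.30.1, cutadapt 2.10 and FastQC 0.11.9, on GRCh38, with their roles, the annotation, the strand setting and the treatment of shared reads not given in the sources used here.

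Groups were compared with the quasi-likelihood test of edgeR 4.0.16 (R 4.3.3), with TMM scaling and edgeR's filter on low counts (17184 genes), after a check on simulated data. Levels are CPM on TMM-scaled library sizes. Single values per library were compared by exact permutation over 70 assignments. Gene models were GENCODE 29 (94.0% of genes matched). Same-numbered libraries did not deviate together (correlations -0.03 to 0.07), so no block was used. Each pair of libraries differed by more than counting noise (chi-square per degree of freedom 2.13 to 7.36). Alternatives were other scalings, DESeq2 1.42.0, no filter, a replicate block, background subtraction, length and GC offsets, and leaving out each library. Background was estimated from 388 olfactory receptor genes. All 10 core genes are named, and from each pathway list up to 6 called genes with the smallest p; any other gene of a list was named after its values were seen. The members and lists were chosen with earlier results of these data known.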

Additional observations from a re-analysis of the deposited data

Results flagged for a closer look

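The DROSHA level of control replicate 3, 258 CPM, stood far from the other 3 control libraries, and its gap to the nearest of them was 0.996 of the group's whole range, beyond Dixon's 95% critical value. It was the single such value among 44 groups of 4 libraries examined, where chance alone gives about 1 in 20. Without that library the DROSHA log2 fold change was -0.06 and did not pass.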

How the results depend on the processing

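The count of core genes called higher, 2, was 1 with DESeq2's size factors (beside 12.2% of all genes), 4 with scaling to library size alone (19.2%), 0 with no filter on low counts (5.26%) and 0 with length and GC offsets (13.1%). With the replicate block it was 1 (11.9%). Leaving out 1 library gave 0 to 1 (9.16% to 12.6%). No core gene was called lower under any of the 16 alternatives. No called gene among the 10 changed sign. The Argonaute sum, 45.5 CPM higher in the tDR group, was 83.7 CPM higher with library size alone and 69.98 and 49.4 CPM higher with background subtracted over gene span and over exons, the last chosen after seeing the data; these 3 passed (exact permutation, adjusted p = 0.0429). The TNRC6 sum, 32.1 CPM higher, was 71.9, 54.7 and 36.5 CPM higher in the same settings and passed likewise. With 1 library left out the Argonaute sum was 37.2 to 46.0 CPM higher and the TNRC6 sum 23.2 to 37.5 CPM higher. Both passed without tDR replicate 3 or 4. The Argonaute sum can pass only where another family sum also reaches the smallest possible p. Passing therefore does not by itself mark a larger Argonaute difference. Same-numbered libraries were not paired by the labels, and 3 of 8 correlated best with their own number. No composition value passed in any alternative run. That outcome was nearly fixed, since most of the 9 values would have had to reach the smallest possible p together, so it is no sign of stability. AGO4 had the fewest counts of the core genes and the widest interval.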
